A study of Canis lupus familiaris with 8 samples.

Results

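The dog miRNAs cfa-miR-23a, cfa-miR-23b and cfa-miR-27b, written here without the prefix, are 3 of the 454 canine miRNAs that a 1-colour Agilent array measured in doxorubicin-resistant and doxorubicin-sensitive mammary tumour cells. They were taken by name from the scanner files and from the deposited value table. They come from 2 gene clusters. In dog RefSeq (assembly UU_Cfam_GSD_1.0) MIR23B, MIR27B and MIR24-1 neighbour each other inside the annotated spans of C1H9orf3 and FANCC, and MIR23A, MIR27A and MIR24-2 neighbour each other outside any annotated gene span. The array design follows CanFam3.1, so no coordinates of this assembly are given.

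The study had 4 groups of 2 samples, all from 1 canine mammary adenocarcinoma line and all grown in serum-containing medium. Star CSC were cells with CD44 and aldehyde dehydrogenase activity and little or no CD24, sorted by flow cytometry from CMT-Star. Star parent was unsorted CMT-Star, which was derived from CMT-Stylo over months of rising doxorubicin until it resisted 100 nM and is labelled as treated. Stylo CSC were sorted by the same markers from CMT-Stylo, and Stylo parent was unsorted CMT-Stylo, both labelled as untreated. Whether CMT-Star is a single clone is not stated, nor is it whether the replicates were cultured separately. The p-values therefore reflect the spread of these samples alone, and that spread may be technical.

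A miRNA pairs through its seed, a short stretch near its 5′ end, with sites in messenger RNAs and lowers their translation or stability. MiR-23a and miR-23b share a seed and nearly all other bases, so array probes may not separate them fully, and miR-27a and miR-27b form another such pair. Each cluster is transcribed as 1 precursor that also carries miR-24. In human cells miR-23a and miR-23b target glutaminase, which MYC raises by repressing them, and miR-27b targets CYP1B1, an enzyme that metabolises oestrogen and drugs. The clusters are also known from endothelial cells, where they affect vessel growth.

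The arrays measured between 24 and 49 miRNAs well above background. Stylo parent replicates 1 and 2 had identical scanner files and were counted as 1 sample, which left 7 arrays and n = 1 for Stylo parent. Stylo CSC replicate 1 lay on slide 2, scanned separately. Its correlation with the other arrays, taken over 17 miRNAs that no array lacked, was r = 0.544 to 0.614, against 0.931 to 0.999 among the 6 arrays of slide 1. In the deposited table, 6 columns followed the scanner totals (454 of 454 entries), while the columns of Stylo CSC replicate 1 and Stylo parent replicate 2 followed them in 409 and 406 entries. Most of those entries were undetected in either source. The scanner detected 38 and 48 miRNAs in these samples and the table columns 30 and 25, so the sources differed for most detected miRNAs. Each result is therefore given for all 7 arrays, for the slide 1 arrays and for the totals recovered from that table. These sets share 6 arrays and are not independent. On slide 1 the position codes in the file headers put all Star arrays in row 2 and all Stylo arrays in row 1, so line and row cannot be told apart. Of the fixed lists of other cell types, epithelial (0 of 7), muscle (0 of 8), mesenchymal (0 of 4), endothelial (0 of 1) and liver miRNAs (0 of 1) were not well above background on any array. The defining miRNAs of epithelial cells were thus not detected in this adenocarcinoma line. Of the blood list only miR-223 (1 of 6) was, on the Stylo parent array, and of the neural list miR-138a (1 of 8), on the array of Stylo CSC replicate 2.

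MiR-23b, the first miRNA of its cluster, was measured well above background on all 7 arrays. Its summed probe signal before scaling was 661 and 598 in Star CSC, 559.9 and 536 in Star parent, 89.3 and 508 in Stylo CSC, and 245 in Stylo parent. After division by each array's 75th percentile over shared detected probes, the log2 signals were 0.40 and 0.40 in Star CSC, 0.75 and 0.76 in Star parent, −1.24 and 0.73 in Stylo CSC, and 0.16 in Stylo parent. The Star replicates lay close together after scaling. On the Star CSC arrays the scaling percentile lay next to a miR-23b probe, so their agreement partly follows from the scaling. The low Stylo CSC value was that of the slide 2 array. Scaled over the slide 1 arrays alone, miR-23b had log2 signals of 1.11 and 1.09 in Star CSC, 1.56 and 1.48 in Star parent, 1.43 in Stylo CSC and 0.68 in Stylo parent. In the recovered totals its scaled log2 levels were 0.51 and 0.52 in Star CSC, 0.85 and 0.82 in Star parent, 1.03 and 1.02 in Stylo CSC, and 0.07 and 0.04 in Stylo parent. There the order was Stylo CSC, Star parent, Star CSC, Stylo parent, and the ranges of no neighbouring groups overlapped. On slide 1 Star parent and Stylo CSC were the top pair, and the single Stylo CSC value lay just below both Star parent values.

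MiR-27b, the neighbour of miR-23b, gave the dimmest signal of the 3. Its summed probe signal before scaling was 111 and 103 in Star CSC, 114 and 105 in Star parent, 16.5 and 90.8 in Stylo CSC, and 62.5 in Stylo parent. It was well above background on 6 of the 7 arrays and not on the slide 2 array of Stylo CSC, where the value lay at the common floor (log2 −3.61). Scaled log2 signals over all arrays were −2.17 and −2.14 in Star CSC, −1.55 and −1.59 in Star parent, −3.61 and −1.76 in Stylo CSC, and −1.81 in Stylo parent. On the slide 1 scale they were −1.46 and −1.45 in Star CSC, −0.74 and −0.87 in Star parent, −1.05 in Stylo CSC and −1.29 in Stylo parent. Star parent stood highest and Star CSC lowest on that scale. The recovered totals gave −2.06 and −2.01 in Star CSC, −1.45 and −1.53 in Star parent, −1.74 and −1.46 in Stylo CSC, and −2.22 and −2.42 in Stylo parent. Here Star parent and Stylo CSC overlapped at the top, and Stylo parent, not Star CSC, was lowest.

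MiR-23a, the only measured miRNA of the other cluster, was well above background on all 7 arrays and spread least. Before scaling its summed probe signal was 364 and 340.2 in Star CSC, 279 and 258 in Star parent, 174 and 230.0 in Stylo CSC, and 152 in Stylo parent. The scaled log2 signals were −0.46 and −0.41 in Star CSC, −0.26 and −0.29 in Star parent, −0.28 and −0.42 in Stylo CSC, and −0.53 in Stylo parent. The slide 2 array did not stand apart in miR-23a, unlike in miR-23b. On the slide 1 scale the values were 0.25 and 0.27 in Star CSC, 0.56 and 0.43 in Star parent, 0.29 in Stylo CSC and −0.01 in Stylo parent. In the recovered totals they were −0.35 and −0.29 in Star CSC, −0.15 and −0.23 in Star parent, 0.00 and −0.12 in Stylo CSC, and −0.62 and −0.81 in Stylo parent. Stylo parent was lowest in every set.

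**Figure D1:**
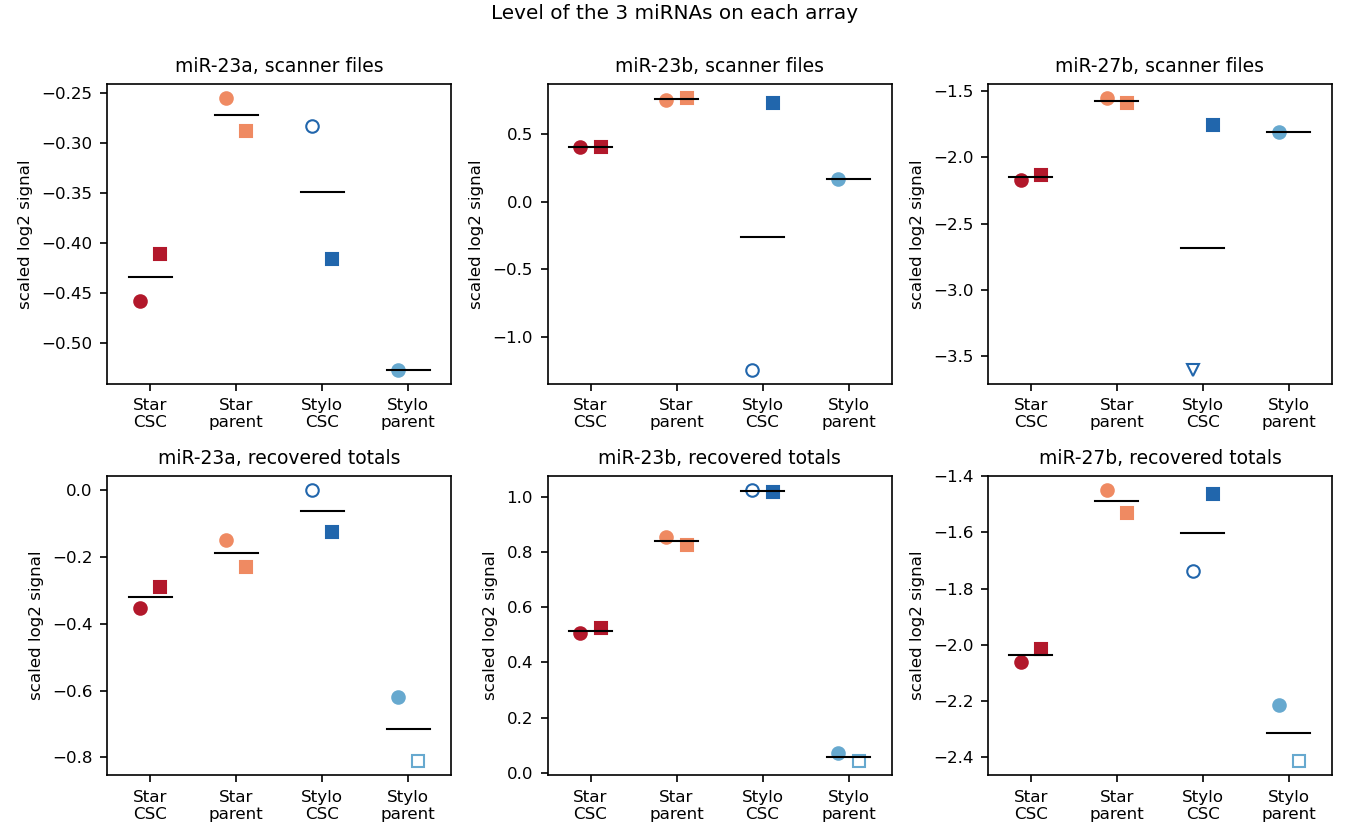
Scaled log2 signal (vertical axes) of miR-23a, miR-23b and miR-27b on each array, from the scanner files over all 7 arrays (upper row) and in the recovered totals over 8 columns (lower row). Circles are replicate 1, squares replicate 2, the triangle is a value at the floor, bars are group means, and open symbols are the slide 2 array (upper row) and the columns that did not follow their scanner files (lower row). Stylo CSC replicate 1 lies at −1.24 for miR-23b in the scanner files and at 1.03 in the recovered totals.

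The remaining miRNAs of both clusters on the array, miR-27a and miR-24, were not well above background on any of the 7 arrays, and neither was miR-128, whose seed resembles that of miR-27. The summed signal of miR-27a ran from −0.865 in Stylo parent to 12.5 in Star CSC replicate 1, and that of miR-24 from −4.81 to 0.335. Of the 5 listed miRNAs of the clusters, 3 were thus measured. No statement about miR-27a or miR-24 between groups was possible at this signal.

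Each member had 2 probes with 20 spots each, and the probes were read separately. On slide 1 the brighter probe of miR-23b had 522 and 471 signal units in Star CSC, 451 and 435 in Star parent, 407 in Stylo CSC and 202 in Stylo parent, with a coefficient of variation over spots of 4.8% to 7.1%. Its dimmer probe had 139 and 127 units in Star CSC, 109 and 101 in Star parent, 100.4 in Stylo CSC and 43.1 in Stylo parent. Stylo parent was lowest on either probe. The log2 change of Star parent against Stylo parent was 0.81 by the brighter probe and 0.97 by the dimmer one, and that of Stylo CSC against Stylo parent 0.71 and 0.92. For Star CSC against Star parent the brighter probe gave −0.46 and the dimmer one −0.28.

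The brighter probe of miR-27b gave 0.41 for Star parent against Stylo parent on slide 1. In Star CSC against Star parent the brighter probe gave −0.64 and the dimmer one −0.67. The dimmer miR-27b probe was well above background in 14 and 10 spots in Star CSC, 16 and 18 in Star parent, 0 and 8 in Stylo CSC, and 0 in Stylo parent, so its changes against either Stylo group are not given. Where a probe failed detection, the scanner's total per miRNA left it out. The Stylo parent total of 14.2 units held the brighter probe alone, against 17.7 with both, a difference of 0.32 on the log2 scale, while every Star total held both. The recovered totals inherit this, which lowers miR-27b in Stylo parent replicate 1 there. The brighter probe of miR-23a gave 0.48 for Star parent against Stylo parent and 0.27 for Stylo CSC against Stylo parent. Its dimmer probe was well above background in only 7 of 20 spots in Stylo parent, so those changes are not given for it. For Star CSC against Star parent the brighter probe gave −0.24 and the dimmer one −0.18.

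**Figure D2:**
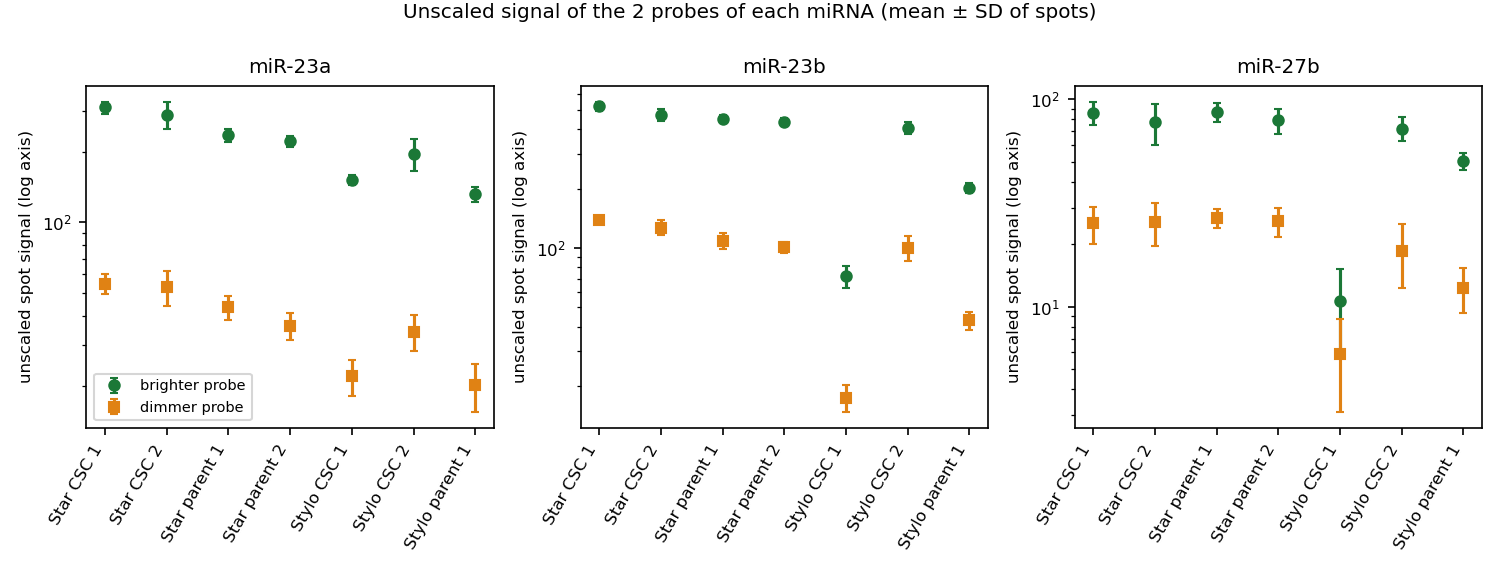
Unscaled spot signal (vertical log axes) of the brighter probe (circles) and the dimmer probe (squares) of each miRNA on the 7 arrays, as means ± SD over the spots kept. For miR-23b the slide 2 array (Stylo CSC 1) reads 71.9 by the brighter probe, against 202 to 522 on the other arrays.

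The parent lines were compared to find levels that differ between the resistant line and the sensitive line it came from. All 3 members were higher in Star parent in the slide 1 set and the recovered set, and none passed over all 7 arrays. On slide 1 miR-23b rose by 0.84 ± 0.05 (SE; limma, adjusted p = 0.00995), miR-23a by 0.51 ± 0.07 (adjusted p = 0.0246) and miR-27b by 0.49 ± 0.07 (adjusted p = 0.0268), with n = 2 and 1. These 3 calls of 3 stand beside 20% of all 50 tested miRNAs called higher there, with a median log2 change of 0.00 over all of them. The recovered totals gave changes of 0.78 ± 0.05 for miR-23b (adjusted p = 0.000454), 0.53 ± 0.10 for miR-23a (adjusted p = 0.0147) and 0.83 ± 0.12 for miR-27b (adjusted p = 0.00797), with n = 2 and 2, beside 17.9% of 56 called higher and a median of 0.29. The miR-27b value is the one that the missing dimmer probe touches. Without Star parent replicate 1 the recovered changes of miR-23a and miR-27b were 0.49 and 0.79 and no longer passed (adjusted p = 0.0805 and 0.0582). Over all 7 arrays the changes were 0.26 ± 0.11 for miR-23a, 0.59 ± 0.86 for miR-23b and 0.24 ± 0.81 for miR-27b (adjusted p = 0.381, 0.838 and 0.902), where 2.17% of 46 were called in either direction. No member had an unadjusted p below 0.05 in any comparison over all 7 arrays (0 by limma). With scaling over all probes miR-23a and miR-27b turned to −0.21 and −0.23. With a percentile taken without the members' own probes the changes were 0.78 for miR-23a (adjusted p = 0.0298, beside 6.52% called higher), 1.12 for miR-23b and 0.76 for miR-27b (adjusted p = 0.898 for either).

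The fit shares 1 estimate of the spread, and the distance between the 2 Stylo CSC arrays enters it. The 95% interval of the miR-23b change ran from −1.79 to 2.97, and that of miR-27b from −1.999 to 2.47. That of miR-23a, which the slide 2 array moved little, ran from −0.05 to 0.56. Without Stylo CSC replicate 1 or without replicate 2 the errors shrank, and without replicate 2 all 3 members passed between the parents at the same changes (adjusted p = 0.0126 for miR-23a, 0.000589 for miR-23b and 0.0118 for miR-27b), but so did 68.1% of all tested miRNAs (21.3% as higher). With the slide as a block over the same 7 arrays the 3 members passed too (adjusted p = 0.0113 for miR-23a, 0.000660 for miR-23b and 0.0104 for miR-27b), beside 69.6% of all tested called in either direction and 21.7% higher. The slide 2 array, alone on its slide, has no weight in that fit beyond the scaling, the filter and the floor. A fit of the parent groups alone took its spread from the 2 Star parent arrays, since Stylo parent had 1 array, and called 60.9% of all tested miRNAs, the members among them.

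Star CSC were compared with Star parent to see what sets the sorted cells of the resistant line apart. MiR-27b and miR-23b were lower in Star CSC after scaling. MiR-23a did not pass in any of the sets, but did under some other settings. On slide 1 miR-27b fell by 0.65 ± 0.06 (limma, adjusted p = 0.00759) and miR-23b by 0.42 ± 0.04 (adjusted p = 0.00759), and miR-23a was at −0.23 ± 0.06 (adjusted p = 0.0555), with n = 2 and 2. This is 2 of 3, beside 24% of all tested called lower. With a percentile taken without the members' own probes miR-23a passed there as lower too, beside 16 of 50 called lower. By the recovered totals miR-27b fell by 0.55 ± 0.12 (adjusted p = 0.0228) and miR-23b by 0.32 ± 0.05 (adjusted p = 0.00668), and miR-23a was at −0.13 ± 0.10 (adjusted p = 0.427), beside 16.1% called lower. Without any 1 of the 4 Star columns the recovered change of miR-27b was −0.59 to −0.51 and no longer passed (adjusted p = 0.0684 to 0.131). All 7 arrays together gave −0.58 for miR-27b, −0.35 for miR-23b and −0.16 for miR-23a (adjusted p = 0.734, 0.817 and 0.383), with 2.17% called in either direction. All 3 passed at these changes without Stylo CSC replicate 2 (adjusted p = 0.00136, 0.000861 and 0.0189), beside 66% of all tested called in either direction and 29.8% lower. They also passed with the slide as a block (adjusted p = 0.00111, 0.000970 and 0.0173), beside 30.4% called lower.

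The direction in Star CSC was relative to the rest of the array. The median signal of the 17 miRNAs detected on every array was 364 and 340.2 in Star CSC, against 218 and 220.1 in Star parent. In Star CSC the miRNA at that median was miR-23a itself. Without scaling, on slide 1, all tested miRNAs shifted by a median of 0.49, and miR-27b was at −0.03, miR-23b at 0.20 and miR-23a at 0.39, so miR-23b and miR-23a changed sign while all 3 stayed below the median. MiR-23a passed as higher without scaling (adjusted p = 0.0256), as did 54% of all tested miRNAs. Whether RNA input or labelling moved with the sorted cells was not tested.

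The sensitive line offers the same contrast, Stylo CSC against Stylo parent. In 2 of the 3 sets the members lay higher in the sorted cells. On slide 1 miR-23b rose by 0.75 ± 0.05 (limma, adjusted p = 0.0123, n = 1 and 1), and miR-23a and miR-27b were at 0.30 ± 0.08 and 0.24 ± 0.08 (adjusted p = 0.0875 and 0.129). That is 1 of 3, beside 10% of all tested called higher, and the spread comes from the Star arrays because each Stylo group had 1 array. Which members passed on slide 1 depended on whether the scaling percentile held the members' own probes. All 3 rose in the recovered totals, miR-23b by 0.96 ± 0.05 (adjusted p = 0.000331), miR-27b by 0.71 ± 0.12 (adjusted p = 0.0168) and miR-23a by 0.65 ± 0.10 (adjusted p = 0.00952), with n = 2 and 2, beside 17.9% called higher. The missing dimmer probe lowers miR-27b in Stylo parent replicate 1 and so adds to the miR-27b rise. Without Stylo parent replicate 2, a column that did not follow its scanner file, miR-27b was at 0.42 (adjusted p = 0.170) and miR-23a at 0.37 (adjusted p = 0.0595). Without Stylo CSC replicate 1 miR-23a was at 0.50 (adjusted p = 0.0577). MiR-23b passed without any 1 of the 8 columns (0.76 to 0.98).

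MiR-23b and miR-27b had the opposite sign over all 7 arrays in Stylo CSC, at −0.42 ± 0.86 and −0.87 ± 0.81, and miR-23a was at 0.18 ± 0.11 (adjusted p = 0.799, 0.604 and 0.444), with 2.17% of all tested called in either direction. The sign rests on which Stylo CSC array is used. Without replicate 2, which leaves 1 array against 1, miR-23b was at −1.41 (adjusted p = 0.000125), beside 68.1% of all tested called in either direction and 44.7% lower. MiR-27b was there at least 2.10-fold lower in Stylo CSC (log2 −1.07), against the lowest signal well above background on that array, since it was itself not well above background (fitted at the floor, log2 −1.79, adjusted p = 0.000244). Without replicate 1, which leaves the slide 1 set, both had the positive values above. With the slide as a block miR-23b was at 0.56 (adjusted p = 0.00137, beside 6.52% called higher), and miR-27b at 0.05 and miR-23a at 0.11 did not pass (adjusted p = 0.285 and 0.108). The slide 2 array had miR-23b at −1.24 and miR-27b at the floor, against 0.73 and −1.76 on the other Stylo CSC array. The table column of the same sample held log2 totals of 7.28 for miR-23b, 4.52 for miR-27b and 6.26 for miR-23a. Its scanner totals were 25.3, 0.1 (not detected) and 49.2 signal units. The labels do not say which of these belongs to the sample.

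Star CSC were set against Stylo CSC to compare the sorted cells of the lines. MiR-23b and miR-27b lay lower in Star CSC on slide 1, at −0.33 ± 0.05 and −0.40 ± 0.07 (limma, adjusted p = 0.0294 and 0.0354, n = 2 and 1), and miR-23a at −0.02 ± 0.07 (adjusted p = 0.797). This is 2 of 3, beside 18% called lower. On each of these slide 1 arrays the scaling percentile lay next to a miR-23a probe, so the scaled miR-23a value was partly set by the scaling. The closing section gives its value under a percentile without the members' own probes. For the recovered totals miR-23b fell by 0.51 ± 0.05 (adjusted p = 0.00466), and miR-27b and miR-23a were at −0.44 ± 0.12 and −0.26 ± 0.10 (adjusted p = 0.0769 and 0.137), so 1 of 3, beside 8.93% called lower. Without Stylo CSC replicate 1 miR-27b passed there too (−0.56, adjusted p = 0.0487), beside 21.2% called lower. Without scaling all 3 lay above 0 on slide 1 (0.31 for miR-23b, 0.24 for miR-27b and 0.61 for miR-23a) and below the median shift of all tested miRNAs for miR-23b and miR-27b (0.54). With all 7 arrays the values were 0.66 ± 0.70, 0.53 ± 0.66 and −0.09 ± 0.09 for miR-23b, miR-27b and miR-23a (adjusted p = 0.706, 0.765 and 0.706), beside 6.52% called in either direction. Without Stylo CSC replicate 2 miR-23b passed as higher in Star CSC (1.65, adjusted p = 6.57e-05), beside 46.8% called higher. MiR-27b was there at least 1.65-fold higher in Star CSC (log2 0.72, against the lowest signal well above background on the Stylo CSC array), with a fitted value of 1.45 at the floor (adjusted p = 0.000244). With the slide as a block miR-23b and miR-27b were at −0.32 and −0.40 (adjusted p = 0.00433 and 0.00701, beside 23.9% called lower).

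The change with sorting differed between the lines for all 3 members in the slide 1 and recovered sets. On slide 1 the Stylo side is 1 array against 1, so the spread comes from the Star arrays. The recovered values rest in part on the columns of Stylo CSC replicate 1 and Stylo parent replicate 2, which did not follow their scanner files. The Star CSC change minus the Stylo CSC change on slide 1 was −1.17 ± 0.07 for miR-23b (limma interaction contrast, adjusted p = 0.00523), −0.89 ± 0.10 for miR-27b (adjusted p = 0.0167) and −0.53 ± 0.10 for miR-23a (adjusted p = 0.0402). It was −1.29 ± 0.08 (adjusted p = 0.000381), −1.26 ± 0.18 (adjusted p = 0.00682) and −0.79 ± 0.14 (adjusted p = 0.0101) in the recovered totals, in the same order, where the missing dimmer probe touches miR-27b. These are 3 of 3 in either set, beside 20% and 16.1% of all tested miRNAs called lower. The recovered values passed without any 1 of the 8 columns, with adjusted p up to 0.0460 for miR-23a, 0.0341 for miR-27b and 0.00824 for miR-23b. Over all 7 arrays the differences were 0.07 ± 1.11 for miR-23b, 0.29 ± 1.04 for miR-27b and −0.34 ± 0.14 for miR-23a (adjusted p = 0.975, 0.847 and 0.348), beside 0% called in either direction, with 8 of 46 miRNAs at an unadjusted p below 0.05. Without Stylo CSC replicate 2, where the Stylo side is 1 array against 1, miR-23b passed with the opposite sign (1.05, adjusted p = 0.000211) and miR-23a with the same sign (−0.41, adjusted p = 0.00881), beside 70.2% of all tested called in either direction. The miR-27b difference was there at least 0.49 on the log2 scale (fitted at the floor 1.21, adjusted p = 0.000689). With the slide as a block the differences were −0.92 for miR-23b, −0.63 for miR-27b and −0.27 for miR-23a (adjusted p = 0.000630, 0.00287 and 0.0246), beside 19.6% called lower. MiR-23b and miR-27b also kept the negative sign without scaling on slide 1 (−0.85 and −0.57, adjusted p = 0.0279 and 0.0629, beside 6% called lower).

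**Figure D3:**
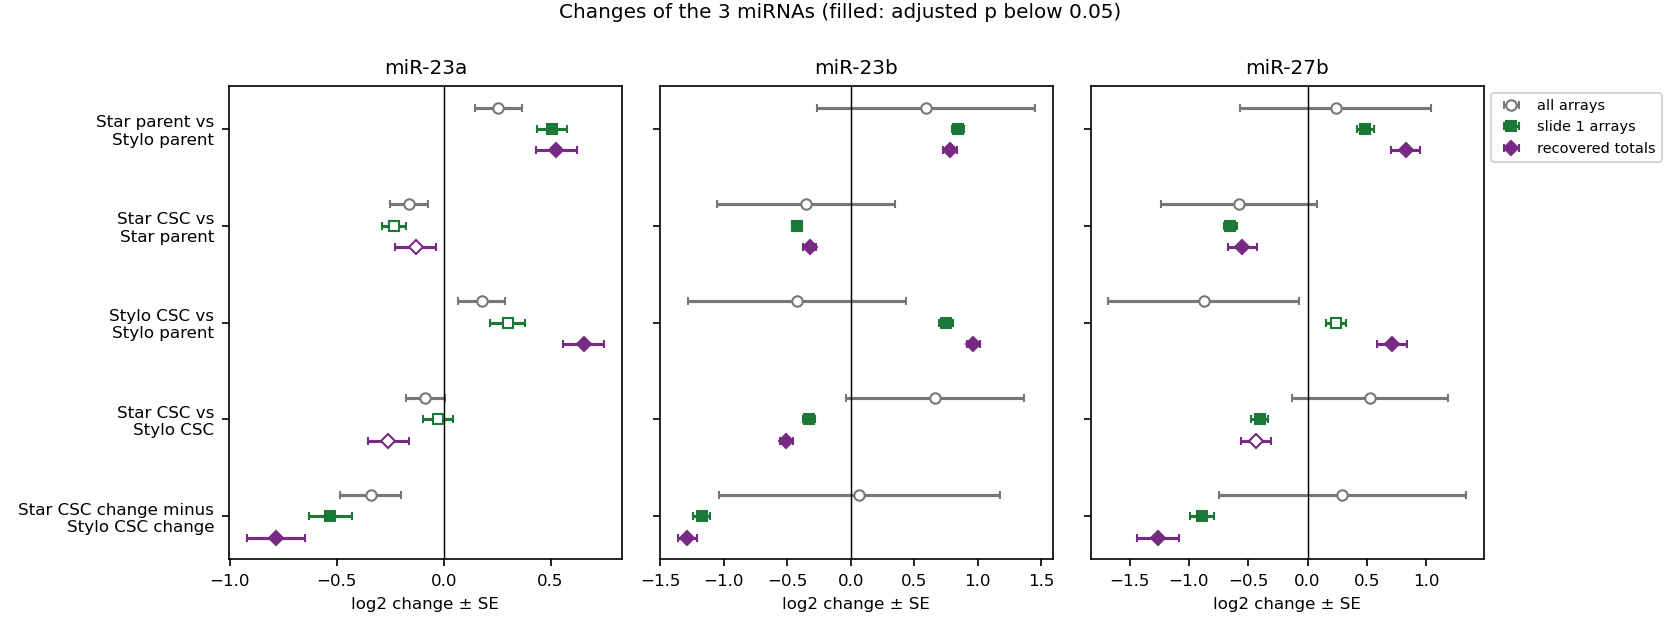
Log2 change ± SE (horizontal axes) of each miRNA in the 5 comparisons, for all 7 arrays (grey circles), the slide 1 arrays (green squares) and the recovered totals (purple diamonds), with filled symbols where the adjusted p is below 0.05. The slide 1 and recovered values of the line-by-sorting difference lie between −0.53 and −1.29, and the all-array values of miR-23b and miR-27b lie above 0 with wide errors.

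Differences between members on the same array do not depend on the scaling unless a value lies at the floor, as miR-27b does on the slide 2 array, and show whether the 23b/27b and 23a clusters changed unequally. The log2 difference miR-23b minus miR-23a was 0.86 and 0.81 in Star CSC, 1.00 and 1.05 in Star parent, −0.96 and 1.14 in Stylo CSC, and 0.69 in Stylo parent. On 6 arrays it thus ran from 0.69 to 1.14, and on the slide 2 array it had the opposite sign. The recovered totals gave 1.02 in place of −0.96 for that sample, and 0.85 for Stylo parent replicate 2. The difference miR-27b minus miR-23b, the neighbours of 1 cluster, was −2.57 and −2.54 in Star CSC, −2.30 and −2.35 in Star parent, −2.36 and −2.48 in Stylo CSC (the first with miR-27b at the floor), and −1.97 in Stylo parent.

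On slide 1 miR-23b changed more than miR-23a. The difference miR-23b minus miR-23a was 0.34 ± 0.08 higher in Star parent than in Stylo parent (limma, adjusted p = 0.0120), but 71.4% of all miRNAs differed from miR-23a in that comparison. It was −0.19 ± 0.07 in Star CSC against Star parent (adjusted p = 0.0477, background 67.3%), 0.45 ± 0.09 in Stylo CSC against Stylo parent (adjusted p = 0.0111, background 65.3%) and −0.31 ± 0.08 in Star CSC against Stylo CSC (adjusted p = 0.0269, background 51%). With such backgrounds these calls do not set the members apart from other miRNAs. The 4 differences had the same signs in the recovered totals, at 0.25, −0.19, 0.31 and −0.25, and none passed (adjusted p = 0.168, 0.316, 0.09996 and 0.218, beside 32.7%, 25.5%, 36.4% and 14.5%).

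The neighbours miR-27b and miR-23b also changed unequally on slide 1. MiR-27b minus miR-23b was −0.36 ± 0.06 in Star parent against Stylo parent (adjusted p = 0.00375, beside 87.8% of miRNAs that differed from miR-23b), −0.23 ± 0.05 in Star CSC against Star parent (adjusted p = 0.0107, beside 75.5%) and −0.51 ± 0.07 in Stylo CSC against Stylo parent (adjusted p = 0.00185, beside 83.7%). Between the sorted groups it was −0.07 ± 0.06 (adjusted p = 0.323, beside 59.2%). The recovered totals had values of 0.05, −0.23, −0.25 and 0.07 and none passed (adjusted p from 0.162 to 0.838, beside 40%, 29.1%, 45.5% and 40%). In these totals Stylo parent replicate 1 lacks the dimmer miR-27b probe, which lowers miR-27b there by 0.32 on the log2 scale. All recovered differences of miR-27b against Stylo parent, here and below, carry this. MiR-27b minus miR-23a was −0.42 in Star CSC against Star parent in either set, with adjusted p = 0.00244 by slide 1 (beside 67.3%) and 0.138 by the recovered totals (beside 25.5%). In Star CSC against Stylo CSC it was −0.38 on slide 1 (adjusted p = 0.0121, beside 51%) and −0.18 in the recovered totals (adjusted p = 0.515, beside 14.5%). Between the parents it was −0.02 on slide 1 (adjusted p = 0.823) and 0.30 in the recovered totals (adjusted p = 0.214). Over all 7 arrays no difference between members passed (adjusted p from 0.501 to 0.982, beside 0% to 2.22%). For the difference between the lines the recovered totals gave −0.50 for miR-23b minus miR-23a, −0.48 for miR-27b minus miR-23a and 0.025 for miR-27b minus miR-23b, and none passed (adjusted p = 0.0803, 0.172 and 0.906, beside 27.3%, 27.3% and 41.8%). On slide 1 all 3 passed, at −0.64, −0.36 and 0.29 (adjusted p = 0.00634, 0.0316 and 0.0280, beside 71.4%, 71.4% and 81.6%).

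**Figure D4:**
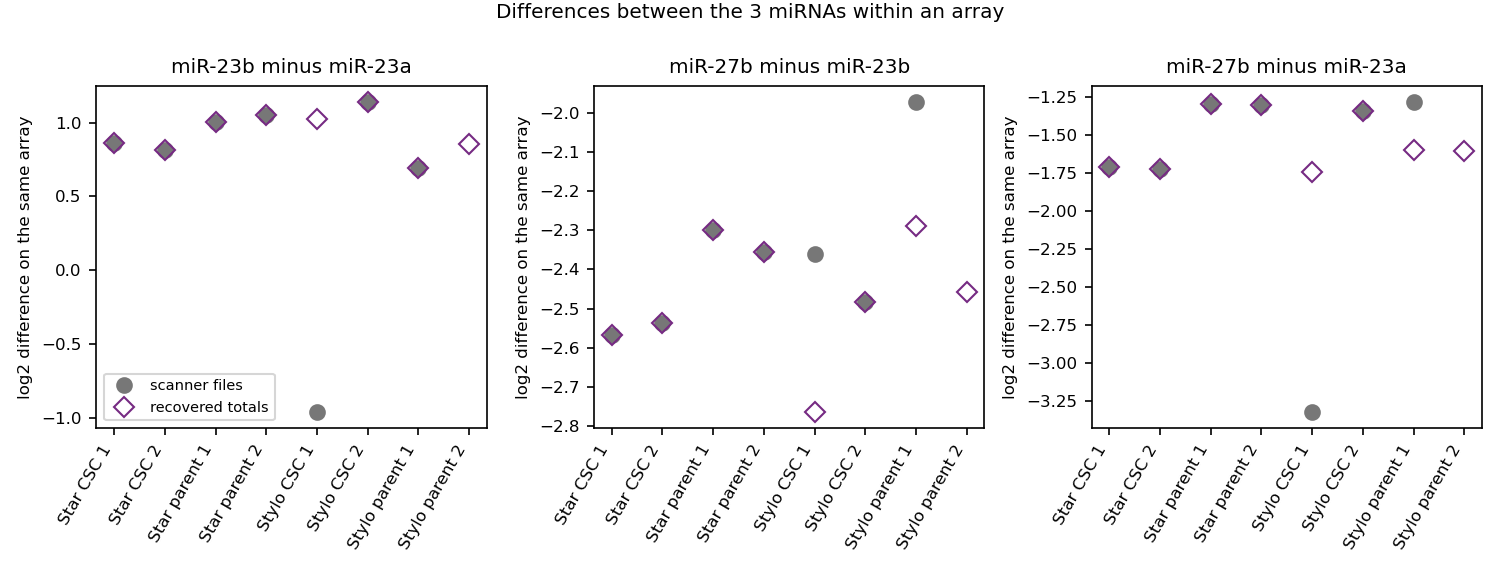
Log2 differences between the miRNAs on the same array (vertical axes) for each sample, from the scanner files (grey circles) and the recovered totals (open purple diamonds). Both sources coincide for miR-23b minus miR-23a except for Stylo CSC 1, at −0.96 and 1.02, and Stylo parent 2, whose scanner file repeats that of replicate 1 and is not drawn. For miR-27b they also differ in Stylo parent 1, at −1.97 and −2.29 to miR-23b.

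The miRNAs most like each member were ranked by Pearson's r of the scaled log2 signal across arrays, given as a description because arrays of 1 group share their source. In the recovered totals (8 columns, 56 miRNAs) miR-23a and miR-23b were each other's closest match at r = 0.964, and miR-27b was closest to miR-23b at r = 0.914 (0.857 to miR-23a). MiR-191 came next for miR-23a (r = 0.948), and followed the members for miR-23b (0.881) and for miR-27b (0.854), and miR-99b followed it for miR-23a (0.884). On slide 1 (6 arrays, 50 miRNAs) miR-191 was closest to miR-23b (r = 0.974) and to miR-23a (0.961), ahead of the match between miR-23a and miR-23b (0.933). After these came miR-99b for miR-23b (0.922) and miR-93 for miR-23a (0.863), while miR-27b was closest to miR-22 (0.881), miR-29a (0.828) and miR-99b (0.808), with miR-23b behind them (0.762). Over all 7 arrays (46 miRNAs) miR-23b and miR-27b matched at r = 0.960, with miR-331 at 0.903 and 0.961, and miR-34a (0.852 to miR-23b) and miR-378 (0.809 to miR-27b) after it. MiR-23a was there at r = −0.13 to miR-23b and −0.18 to miR-27b, and closest to miR-29a (0.861), miR-93 (0.654) and miR-191 (0.640). These 7-array values include the slide 2 array, where miR-23b was at −1.24 and miR-27b at the floor. Slide 1, without that array, had 0.762 between miR-23b and miR-27b. There miR-23a was at 0.933 to miR-23b and 0.716 to miR-27b.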

How the data were processed

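Total RNA (100 ng per sample) was labelled with Cy3, per the labels' protocols, and the deposited files give an intensity per spot, background-subtracted by Agilent Feature Extraction 11.5.1.1, per the submitters' processing notes and the file headers. The deposited value table holds log2 totals per miRNA. Set against the scanner totals (tolerance 0.01) it carried 1 shift per array and a centre per miRNA, which were undone to give the recovered totals. The log2 shift was −6.15 for the columns of Stylo CSC replicate 1 and Stylo parent replicate 2, against −0.29 to 0.94 for the others. In these columns the undoing could not be checked against the scanner for most detected miRNAs. The reason for the shifts is not given in the sources used here, and totals of undetected miRNAs are 0.1.

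Spots of a probe were averaged without control and outlier spots (3.84% to 9.15%), the probes of a miRNA were summed, and each array was divided by its 75th percentile over the probes well above background (over 50% of spots) on all arrays: 22 probes, 2 of them of the members, or 39 with 4 on slide 1, and 22 miRNAs with all 3 members in the recovered totals. A common floor was set at log2 −3.61 (−2.99 on slide 1, −4.92 in the recovered totals). The miRNAs tested (46, 50 and 56) had to be detected on all arrays of 1 group or more, and were fitted with limma 3.58.1 in R 4.3.3, 4 group means in 1 fit, two-sided, with Benjamini-Hochberg adjustment over all tested miRNAs and a threshold of 0.05. Differences between members were fitted in the same way after subtracting 1 member from all miRNAs. The procedure was tested on simulated data in which no array stood apart, so that test does not cover the slide 2 array. The number of arrays limits the precision.

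Members, lists and tests were chosen with earlier results of these data known. Named miRNAs were the members, the other miRNAs of their clusters and the 3 miRNAs most like each member by Pearson's r. The replicate numbers were not taken as pairs. Alternatives covered the slide, source of values, scaling, background, probe summary, filter, floor, arrays in the fit and replicates, and the closing section gives their effect.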

Additional observations from a re-analysis of the deposited data

Results flagged for a closer look

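The change with sorting differed between the lines by the limma interaction contrast (Star CSC change minus Stylo CSC change, adjusted p below 0.05). On slide 1 it was −1.17 for miR-23b, −0.89 for miR-27b and −0.53 for miR-23a, and in the recovered totals −1.29, −1.26 and −0.79 in the same order. For the differences between members on the same array it was −0.64 for miR-23b minus miR-23a, −0.36 for miR-27b minus miR-23a and 0.29 for miR-27b minus miR-23b on slide 1, where 71.4%, 71.4% and 81.6% of all miRNAs gave such a call. None of these passed over all 7 arrays (adjusted p from 0.348 to 0.975 for the members). The Stylo side of the slide 1 values is 1 array against 1, and the recovered values rest on columns of Stylo CSC replicate 1 and Stylo parent replicate 2 that did not follow their scanner files. The recovered miR-27b total of Stylo parent replicate 1 also lacks the dimmer probe. Without Stylo CSC replicate 2 in place of replicate 1 the scanner values were 1.05 for miR-23b and at least 0.49 for miR-27b, of opposite sign, and −0.41 for miR-23a, beside 70.2% of all miRNAs called in either direction. No group had enough samples to look for single outlying samples.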

How the results depend on the processing

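Log2 changes are given for the 5 comparisons in the order Star parent against Stylo parent, Star CSC against Star parent, Stylo CSC against Stylo parent, sorted Star against sorted Stylo cells, and last the line difference (Star CSC change minus Stylo CSC change). Of 904 alternative values for 30 results over all 7 arrays, 505 kept the direction and the side of the threshold, 163 kept the direction and passed, and 236 had the opposite direction. Some of these 236 passed in the opposite direction. The cause was not tested. The slide as a block gave 0.59, −0.35, 0.56, −0.32 and −0.92 for miR-23b, 0.24, −0.58, 0.051, −0.40 and −0.63 for miR-27b, and 0.26, −0.16, 0.11, −0.019 and −0.27 for miR-23a, and 12 of these 15 passed, with 45.7% to 69.6% of all miRNAs called. Use of slide 1 alone gave 0.84, −0.42, 0.75, −0.33 and −1.17 for miR-23b, 0.49, −0.65, 0.24, −0.40 and −0.89 for miR-27b, and 0.51, −0.23, 0.30, −0.025 and −0.53 for miR-23a. The recovered totals gave 0.78, −0.32, 0.96, −0.51 and −1.29 for miR-23b, 0.83, −0.55, 0.71, −0.44 and −1.26 for miR-27b, and 0.53, −0.13, 0.65, −0.26 and −0.79 for miR-23a. Without scaling the recovered totals gave 1.11, 0.20, 1.06, 0.25 and −0.86 for miR-23b, 1.16, −0.028, 0.81, 0.32 and −0.84 for miR-27b, and 0.86, 0.39, 0.75, 0.50 and −0.36 for miR-23a. Scaling over all probes gave 0.12, 0.43, −0.94, 1.50 and 1.38 for miR-23b, −0.23, 0.21, −1.07, 1.04 and 1.27 for miR-27b, and −0.21, 0.63, −0.34, 0.76 and 0.97 for miR-23a. Without scaling over all 7 arrays miR-23b was at 0.20 and miR-23a at 0.39 in Star CSC against Star parent, and miR-23a at 0.82 in Star CSC against Stylo CSC. Of these 3 values 1 passed, beside 11 of 46 and 15 of 46 miRNAs called higher in these comparisons. Alternatives chosen after seeing the data were slide 1 without scaling, the brighter probe alone (no result of 30 moved across the threshold or turned) and a percentile without the members' own probes. Slide 1 without scaling gave 1.16, 0.20, 1.05, 0.31 and −0.85 for miR-23b, 0.80, −0.028, 0.54, 0.24 and −0.57 for miR-27b, and 0.82, 0.39, 0.60, 0.61 and −0.21 for miR-23a. A percentile without the members gave 1.12, −0.51, −0.29, 0.90 and −0.21 for miR-23b, 0.76, −0.73, −0.48, 0.50 and −0.26 for miR-27b, and 0.78 (passed), −0.32, 0.31, 0.15 and −0.62 for miR-23a. On slide 1 this percentile gave 0.94, −0.41, 0.81, −0.27 and −1.22 for miR-23b, 0.59, −0.63, 0.30, −0.35 and −0.93 for miR-27b, and 0.60, −0.22, 0.36, 0.031 and −0.57 for miR-23a. Nearly all of these slide 1 values passed, that of miR-23a in Star CSC against Star parent among them. Many other miRNAs passed too, and each Stylo group had 1 array. In the table this percentile gave 1.01, −0.45, 1.07, −0.51 and −1.52 for miR-23b, 1.05, −0.68, 0.82, −0.44 and −1.50 for miR-27b, and 0.75, −0.26, 0.76, −0.27 and −1.02 for miR-23a. For differences on the same array, slide 1 and the slide block gave 0.34, −0.19, 0.45, −0.31 and −0.64 for miR-23b minus miR-23a, −0.019, −0.42, −0.061, −0.38 and −0.36 for miR-27b minus miR-23a, and −0.36, −0.23, −0.51, −0.070 and 0.29 for miR-27b minus miR-23b. For these differences the table gave 0.25, −0.19, 0.31, −0.25 and −0.50 for miR-23b minus miR-23a, 0.30, −0.42, 0.060, −0.18 and −0.48 for miR-27b minus miR-23a, and 0.046, −0.23, −0.25, 0.071 and 0.025 for miR-27b minus miR-23b.

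Fits of the groups compared alone passed for miR-23b, miR-27b and miR-23a in Star parent against Stylo parent (0.59, 0.24 and 0.26, where the spread is that of the 2 Star parent arrays) and in Star CSC against Star parent (−0.35, −0.58 and −0.16), and so did 60.9% and 67.4% of all miRNAs. Normexp background gave −0.15 for miR-27b in Star parent against Stylo parent and −0.35 in Star CSC against Stylo CSC. For Star CSC against Star parent it gave −0.48 for miR-27b (passed, beside 4 of 46 miRNAs called, all lower). It gave line differences of −0.14 for miR-23b and −0.20 for miR-27b. It gave −0.13 for miR-27b minus miR-23a in Star CSC against Stylo CSC and −0.066 for the line difference of miR-27b minus miR-23b, where the mean of log2 probe signals gave −0.060. Scanner totals gave a line difference of −0.41 for miR-23b, 0.30 for miR-27b minus miR-23a between the parents and 0.88 for miR-27b minus miR-23b between the sorted groups. Quantile normalization gave a line difference of −0.049 for miR-23b. Leaving out 1 array at a time gave 0.58 to 0.84, −0.42 to −0.35, −1.41 to 0.75, −0.33 to 1.65 and −1.17 to 1.05 for miR-23b, 0.22 to 0.49, −0.65 to −0.56, −1.79 to 0.24, −0.40 to 1.45 and −0.89 to 1.21 for miR-27b, 0.24 to 0.51, −0.23 to −0.14, 0.18 to 0.30, −0.15 to −0.025 and −0.53 to −0.32 for miR-23a. For differences on the same array it gave 0.31 to 0.36, −0.22 to −0.17, −1.65 to 0.45, −0.31 to 1.80 and −0.64 to 1.46 for miR-23b minus miR-23a, −0.022 to −0.017, −0.42 to −0.41, −2.04 to −0.061, −0.38 to 1.60 and −0.36 to 1.62 for miR-27b minus miR-23a, −0.38 to −0.33, −0.25 to −0.20, −0.51 to −0.38, −0.20 to −0.070 and 0.16 to 0.29 for miR-27b minus miR-23b. Each wide range ends at the value without Stylo CSC replicate 1 and at the value without Stylo CSC replicate 2. Without replicate 1, 11 of 30 results had the opposite direction to the fit of all arrays, and without replicate 2, 0 of 30. Either omission made calls, among the members and among many other miRNAs, and left 1 array in each Stylo group. Without replicate 1 some of the calls were in the opposite direction. The values of miR-27b without replicate 2 are fitted at the floor and are not exact changes. Without Stylo parent replicate 1 no comparison with Stylo parent could be fitted. Leaving out 1 column of the recovered totals gave 0.77 to 0.80, −0.44 to −0.31, 0.76 to 0.98, −0.51 to −0.40 and −1.30 to −1.19 for miR-23b, 0.76 to 0.93, −0.66 to −0.51, 0.42 to 0.81, −0.56 to −0.30 and −1.39 to −1.08 for miR-27b, 0.46 to 0.62, −0.24 to −0.092, 0.37 to 0.75, −0.32 to −0.15 and −0.88 to −0.61 for miR-23a. For differences on the same array it gave 0.17 to 0.34, −0.22 to −0.17, 0.23 to 0.39, −0.31 to −0.19 and −0.58 to −0.42 for miR-23b minus miR-23a, 0.30 to 0.30, −0.42 to −0.41, −0.14 to 0.26, −0.38 to 0.024 and −0.68 to −0.28 for miR-27b minus miR-23a, −0.039 to 0.13, −0.25 to −0.20, −0.39 to −0.11, −0.070 to 0.21 and −0.12 to 0.17 for miR-27b minus miR-23b.

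The replicate numbers were not taken as pairs: deviations of same-numbered samples correlated at −0.36 to −0.03 over the scanner arrays and at −0.57 to 0.47 in the recovered totals. With so few samples per group this check cannot show whether samples were paired. With the replicate block miR-27b was at −0.071 and miR-23b minus miR-23a at −0.015 in Star parent against Stylo parent, and the other 28 results over all 7 arrays kept direction and side. In the recovered totals the replicate block left the values as they were, for example 0.78 for miR-23b between the parents, and ended 1 call, that of miR-27b in Star CSC against Star parent. Signal over background limits miR-27b most, and miR-27a and miR-24 could not be measured.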
